A study of Mus musculus with 30 samples.

Results

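The genes of 4 enzyme groups that metabolise foreign compounds were followed through mouse lung organoid co-cultures: the cytochrome P450 families CYP1 to CYP4, the carboxylesterases, the flavin-containing monooxygenases and the cytosolic glutathione S-transferases. They were taken by symbol (Cyp1 to Cyp4 with a subfamily letter, Ces1 to Ces5, Fmo with a single digit, and Gst of the classes a, m, p, t, o and z), and 34 symbols marked as pseudogenes were dropped. This left 129 of 55487 genes, of which 89 had at least 1 read in the 30 libraries, 36 of these with fewer than 30 reads in all, and 40 had none. The transcript Cyp4x1os was taken by its symbol but encodes no enzyme.

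P450 enzymes and flavin-containing monooxygenases oxidise foreign and endogenous compounds, carboxylesterases cleave ester and amide bonds, and glutathione S-transferases attach glutathione to reactive products. Most of these genes are best known from liver, but the club cells of the airways carry a P450 system of their own, with Cyp2f2 as its best known member in mice, and the CYP1 genes are switched on in many tissues by the aryl hydrocarbon receptor (AHR). Several glutathione S-transferases are targets of NRF2, the transcription factor of the oxidative stress response.

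Each co-culture combined primary CD31-CD45-Epcam+ lung cells of an adult wild-type C57BL/6J mouse with CCL206, a mouse lung fibroblast line whose division had been stopped with mitomycin C. The cultures were exposed for 72 h to vehicle, to EC (an exacerbation cocktail of TNFα, IL-1β, IL-6 and IL-8, the last named KC in the study's methods), to IPFc (a cocktail of factors of idiopathic pulmonary fibrosis: TGF-β, TNFα, TSLP, CCL2 and the interleukins IL-1β, IL-33, IL-4, IL-13 and IL-8) or to TGF-β alone at 2 ng/ml. Cells were then separated with Epcam microbeads, and the Epcam+ (epithelial) and Epcam- (fibroblast) fractions were sequenced in bulk. Replicate numbers stand for mice: each group comprised 4 mice except epithelial TGF-β (mice 2, 3 and 4) and fibroblast vehicle (mice 1, 3 and 4), with no library of the remaining mouse. The study excluded 1 control fibroblast sample for low RNA quality and gives no reason for the missing epithelial TGF-β library. All fibroblast libraries rest on the same cell line, so that their replicates are co-cultures and not fibroblast donors.

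Epithelial libraries held 8275413 to 20317181 counted reads and fibroblast libraries 5113828 to 18447405. The fractions were not pure. RNA of the fibroblast fraction, estimated from marker genes, made up 4.33 to 9.09% of epithelial vehicle libraries, 4.74 to 14.8% with EC, 4.29 to 16% with IPFc and 24.4 to 30.8% with TGF-β. Epithelial RNA made up 13.8 to 25.7% of fibroblast vehicle libraries, 35.4 to 53.7% with EC, 9.54 to 28.2% with IPFc and 0.732 to 3.1% with TGF-β. These shares are estimates. Any marker RNA made by the sorted cells themselves, also where a treatment raised it, would count as RNA of the other fraction. The estimate also takes the partner library as pure, which it was not. Because the estimated shares moved with treatment, results are given as measured, together with the fit in which the share of the other fraction had been subtracted from the counts. Subtraction raised the biological coefficient of variation (the spread between replicates in the fit) from 12.7 to 19.6% in epithelial and from 16.9 to 42.5% in fibroblast libraries, so a call lost there does not by itself show a smaller change. The fibroblast EC library of mouse 1 had the fewest reads of all libraries and stood apart from the other 3 of its group for several enzymes, so fibroblast results are also given without it. The sorted fractions carried their own markers: the 10 epithelial markers summed to 9050 to 10970 CPM (counts scaled to the TMM library size) in epithelial and 1303 to 2413 CPM in fibroblast vehicle libraries, and the 10 fibroblast markers to 887 to 1512 and 12260 to 15070 CPM. The 8 immune markers summed to at most 159.8 CPM, the 6 endothelial markers to at most 10.2 CPM and the 5 liver markers to at most 1.02 CPM in any library, and none or at most 1 gene of these lists was called in either direction in any treatment comparison, except for 2 endothelial genes that were higher in fibroblasts exposed to TGF-β.

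Promoter sequences are shown for 4 genes on which the results turn: Cyp2f2 and Ces1g, which were lower with TGF-β in epithelial cells before and after subtraction, and the CYP1 genes Cyp1a1 and Cyp1b1, which changed in opposite directions with IPFc in epithelial cells. The RefSeq promoter table (GRCm38.p6) held a window of 250 bases before to 50 bases after the start site for 106 of the 129 genes; Ces1f, Ces1d and Gsta4 were not among them. The windows are written 5′ to 3′ on the strand of the gene. Capitals mark matches on either strand to the core of the xenobiotic response element bound by AHR (GCGTG), of the antioxidant response element bound by NRF2 (TGACNNNGC) and to the SMAD box (CAGAC). Cyp2f2 lies at chr7:27119955-27133660 on the plus strand (window chr7:27119705-27120004) and Cyp1a1 at chr9:57687928-57703824 on the plus strand (window chr9:57697363-57697662). The start site of the Cyp1a1 window lies inside the gene interval and not at its first base. Ces1g lies at chr8:93302369-93337209 on the minus strand (window chr8:93337160-93337459) and Cyp1b1 at chr17:79706940-79715061 on the minus strand (window chr17:79715012-79715311).
Cyp2f2: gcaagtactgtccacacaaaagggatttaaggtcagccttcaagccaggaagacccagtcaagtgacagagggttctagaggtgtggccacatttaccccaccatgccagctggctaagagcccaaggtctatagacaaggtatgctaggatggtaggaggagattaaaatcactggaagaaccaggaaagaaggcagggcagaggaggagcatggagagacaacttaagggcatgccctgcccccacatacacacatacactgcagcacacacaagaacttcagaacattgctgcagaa
Ces1g: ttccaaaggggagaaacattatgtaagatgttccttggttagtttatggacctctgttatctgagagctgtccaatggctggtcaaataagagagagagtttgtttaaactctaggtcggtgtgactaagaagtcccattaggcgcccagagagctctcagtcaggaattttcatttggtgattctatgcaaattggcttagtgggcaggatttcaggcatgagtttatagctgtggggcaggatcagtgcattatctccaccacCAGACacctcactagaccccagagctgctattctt
Cyp1a1: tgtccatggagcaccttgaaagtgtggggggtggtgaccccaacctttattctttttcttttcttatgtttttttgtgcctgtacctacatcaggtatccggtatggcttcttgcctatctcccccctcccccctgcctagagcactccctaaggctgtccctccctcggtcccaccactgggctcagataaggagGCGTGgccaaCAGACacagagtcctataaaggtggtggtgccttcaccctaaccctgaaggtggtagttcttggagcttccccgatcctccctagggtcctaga
Cyp1b1: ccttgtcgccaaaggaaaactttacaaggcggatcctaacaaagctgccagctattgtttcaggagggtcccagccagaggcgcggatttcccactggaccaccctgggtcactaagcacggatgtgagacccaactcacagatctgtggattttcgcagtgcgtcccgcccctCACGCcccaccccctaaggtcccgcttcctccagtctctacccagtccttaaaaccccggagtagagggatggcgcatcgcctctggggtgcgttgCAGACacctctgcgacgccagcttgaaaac
The Cyp1a1 window held 1 xenobiotic response element core, 54 bases before the start site, and the Cyp1b1 window held 1 on the opposite strand, 76 bases before it. Cyp2f2 matched none of the 3 motifs, whereas Ces1g, Cyp1a1 and Cyp1b1 each held 1 SMAD box. These letters are common: GCGTG occurred in 32.4% of all 32851 windows and in 21 of the 106 (19.8%), TGACNNNGC in 12.4% and in 9 (8.49%), and CAGAC in 49.6% and in 67 (63.2%). A match describes the sequence and does not show binding.

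A few genes supplied most of the reads. The 129 genes took 0.277 to 0.325% of all reads in epithelial and 0.151 to 0.174% in fibroblast vehicle libraries. In epithelial libraries Gsto1, an omega-class glutathione S-transferase, took 45.7% of these reads, Cyp1b1 14.6%, Gsta4 9.87% and Cyp2f2 8.95%. In fibroblast libraries Gsto1 took 30.5%, the pi-class enzyme Gstp1 15.9% and Gsta4, which conjugates aldehydes from lipid peroxidation, 10.8%. These are shares of reads, not corrected for gene length.

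A mean count of at least 1 was reached by 55 of the 129 genes in the epithelial and by 49 in the fibroblast libraries, 48 of them in both, and these were tested. The glutathione S-transferases were represented most completely, with reads for all 21 genes and 20 tested in each fraction. Of the 19 carboxylesterases 13 had reads and 11 and 8 were tested, and of the 49 CYP2 genes 25 had reads and 11 and 9 were tested. Of the 9 CYP3 genes, the main drug-metabolising P450 family of liver, 6 had reads and 1, Cyp3a13, was tested in each fraction. Of the 21 CYP4 genes 6 and 7 were tested, of the 7 flavin-containing monooxygenases 4 and 2. Cyp1a2, the CYP1 enzyme of liver, had 2 reads in epithelial TGF-β and 1 in fibroblast IPFc libraries and none elsewhere. In sum over their genes, the glutathione S-transferases reached 2099 to 2446 CPM in epithelial and 1048 to 1305 CPM in fibroblast vehicle libraries, and the carboxylesterases 50 to 92.1 and 77.1 to 98.1 CPM. The Ces1 genes and the Gsta, Gstm and Gstp genes are close paralogs, and since the handling of reads shared between paralogs is not described, the values of single genes of these clusters are uncertain.

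**Figure D1:**
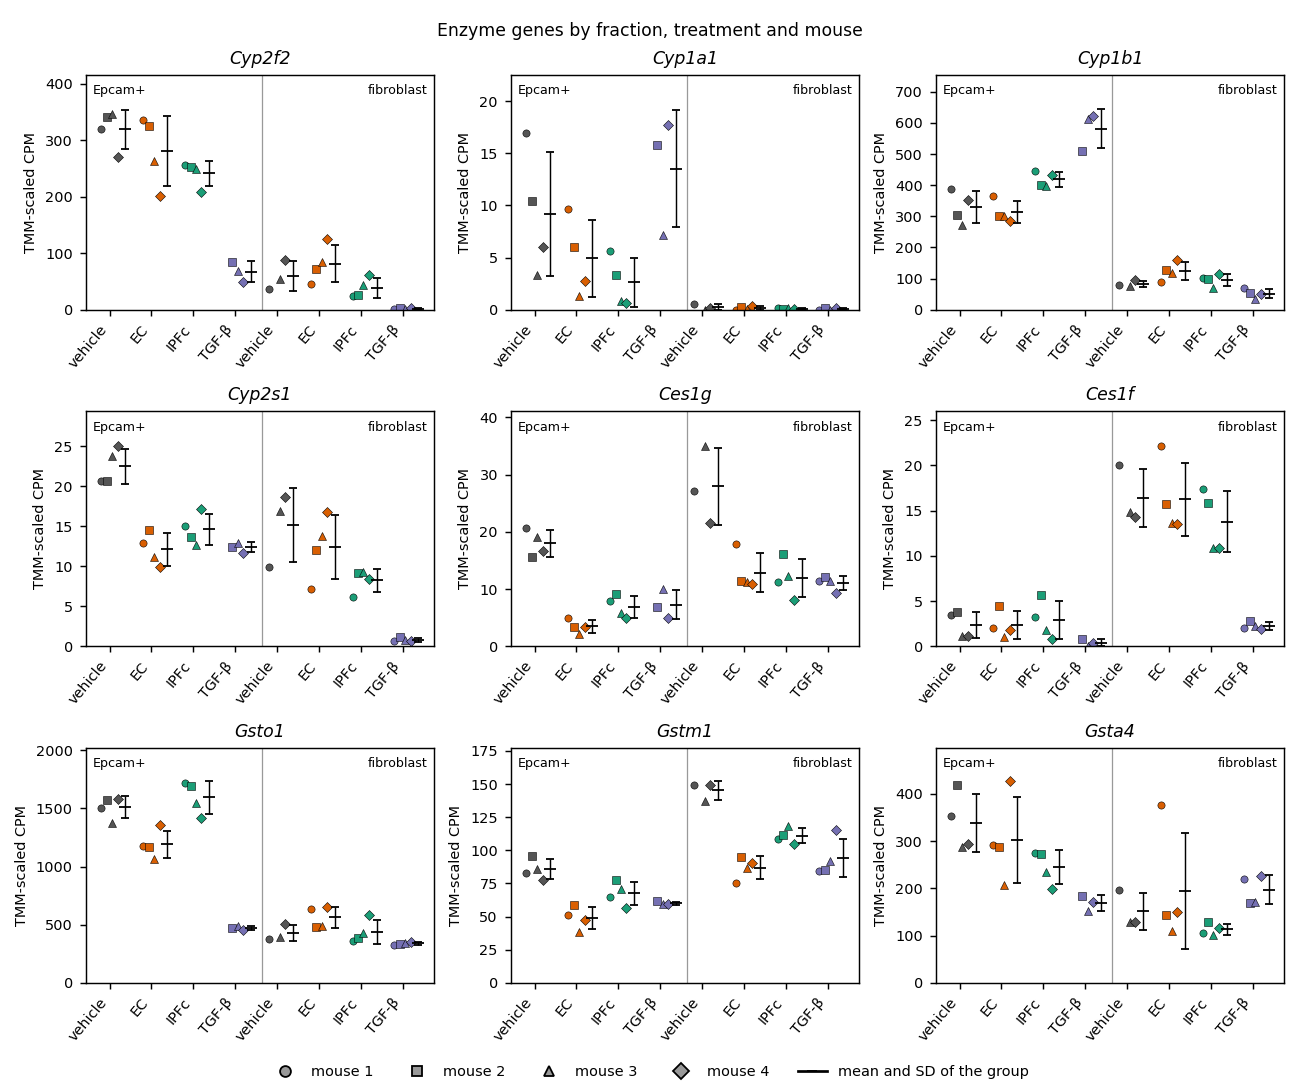
TMM-scaled CPM (vertical axes, linear) of 9 enzyme genes in each fraction and treatment (horizontal axis), with a symbol for each mouse and the mean and SD of each group. In epithelial libraries Cyp2f2 was lowest with TGF-β (48.6 to 84.9 CPM against 270 to 346 CPM with vehicle) and Ces1g was lowest with EC (2.21 to 4.89 CPM against 15.5 to 20.6 CPM).

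The first comparison asked which enzymes distinguished the fractions under vehicle. Of 53 genes tested, 16 were higher in the epithelial and 19 in the fibroblast fraction, together 66%, against 56% of all genes (27.8% higher and 28.2% lower in the epithelial fraction). Both CYP1 genes tested and Cyp2f2 were higher in the epithelial fraction. CYP2 had 2 higher and 5 lower of 11, CYP4 1 higher and 3 lower of 7, the carboxylesterases 2 higher and 5 lower of 9, the flavin-containing monooxygenases 1 higher and none lower of 3 and the glutathione S-transferases 8 higher and 6 lower of 20.

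Cyp1a1, the classical AHR target, read 17, 10.4, 3.29 and 6.01 CPM in the epithelial vehicle libraries of mice 1 to 4 and 0.527, 0 and 0.189 CPM in the fibroblast vehicle libraries of mice 1, 3 and 4. The fractions did not overlap, although the epithelial values differed widely between mice, and the log2 difference was 5.20 ± 0.54 (SE, adjusted p = 4.62e-09, edgeR). Cyp1b1, which oxidises polycyclic hydrocarbons and oestrogens, read 389, 305, 271 and 353 CPM and 79.1, 76.6 and 94.4 CPM, with a log2 difference of 2.00 ± 0.18 (adjusted p = 3.51e-10, edgeR). Cyp2f2, which activates naphthalene in club cells, read 321, 341, 346 and 270 CPM in epithelial and 36.4, 54.7 and 87.5 CPM in fibroblast libraries (2.47 ± 0.37, adjusted p = 1.96e-06, edgeR). Its fibroblast value was highest in mouse 4, whose fibroblast vehicle library also held the most epithelial RNA of the 3. The source of these reads was not tested. Gsto1 averaged 1509 ± 94.3 CPM (SD, n = 4) against 426 ± 68.6 CPM (SD, n = 3), a log2 difference of 1.85 ± 0.14 (adjusted p = 1.89e-11, edgeR).

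Other enzymes were higher in the fibroblast fraction. Cyp2c55, of the CYP2C subfamily, read 0.308 to 0.647 CPM in epithelial and 6.82 to 12.7 CPM in fibroblast vehicle libraries (log2 difference -4.42 ± 0.30, adjusted p = 1.98e-12, edgeR). Ces1f, a carboxylesterase, read 1.1 to 3.8 CPM against 14.3 to 20.1 CPM (-3.10 ± 0.32, adjusted p = 4.93e-09, edgeR), and Gstm5, a mu-class transferase, 3.62 to 4.13 CPM against 16.8 to 28.2 CPM (-2.40 ± 0.19, adjusted p = 2.98e-11, edgeR). Cyp4f17, of the CYP4F subfamily of fatty acid and eicosanoid hydroxylases, read 5.92 to 9.37 CPM against 30.7 to 31.3 CPM (-2.07 ± 0.19, adjusted p = 5.5e-10, edgeR). None of these 4 genes overlapped between the fractions, and the share of all genes without overlap is not given here. Cyp2c55, Gstm5 and Cyp4f17 were named for their small adjusted p in this comparison, which favours separated values.

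The carboxylesterase Ces1g was higher in the fibroblast fraction as well, with 20.6, 15.5, 19.1 and 16.6 CPM in epithelial and 27.2, 35.1 and 21.6 CPM in fibroblast libraries. The values did not overlap, and the log2 difference was -0.65 ± 0.21 (adjusted p = 0.0114, edgeR), but the adjusted p reached 0.0656 when a mouse was left out. After subtraction 32 of the 35 calls remained, and those of Gsta4, Cyp2s1 and Ces1d were lost (log2 difference 1.66, 0.80 and 1.02 after subtraction). Subtraction takes a share of each fraction's counts from the other and so moves the fractions apart by itself. Calls kept there are therefore no separate check, and the share of all genes called in that fit is not given here.

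**Figure D2:**
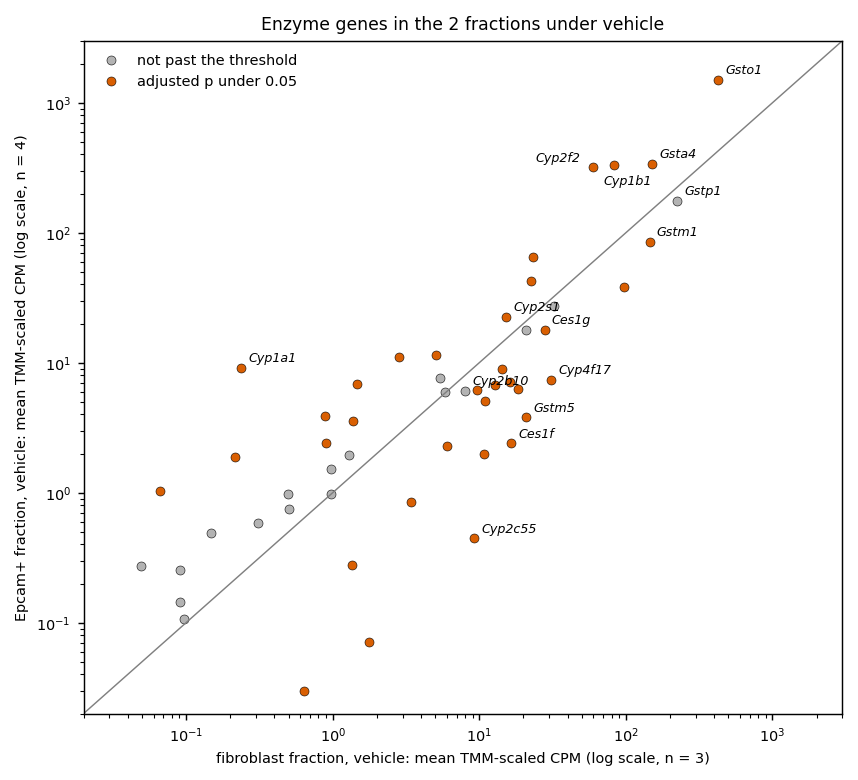
Mean TMM-scaled CPM of the tested enzyme genes under vehicle in the fibroblast (horizontal) and epithelial fraction (vertical), both on log scales, with the line of equal values. Coloured points passed the threshold. Cyp1a1 (9.17 against 0.239 CPM) lies above the line and Cyp2c55 (0.447 against 9.19 CPM) below it.

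EC lowered 8 of the 55 enzymes tested in epithelial cells and raised none. This was 14.6% of them, against 4.41% of all genes (1.96% higher and 2.44% lower), and the median log2 change was -0.27 for the 55 genes and 0.00 for all genes. The 8 were Ces1g among 11 carboxylesterases, Cyp1a1 of 2 CYP1 genes, Cyp2s1 and Cyp2b10 of 11 CYP2 genes, Cyp4f39 of 6 CYP4 genes, Fmo2 of 4 flavin-containing monooxygenases, and Gstm1 and Gsto1 of 20 glutathione S-transferases. Each was lower in all 4 mice.

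Ces1g read 20.6, 15.5, 19.1 and 16.6 CPM with vehicle and 4.89, 3.39, 2.21 and 3.4 CPM with EC in mice 1 to 4. The groups were far apart, and the mean fell from 18 ± 2.33 to 3.47 ± 1.1 CPM (SD, n = 4 each), by 5.29-fold in the fit (log2 -2.40 ± 0.22, adjusted p = 2.67e-07, edgeR). Gstm1, a mu-class transferase, read 82.6, 95.7, 86 and 77.9 CPM with vehicle and 51.1, 58.9, 38.4 and 47.4 CPM with EC, without overlap (-0.81 ± 0.10, adjusted p = 2.1e-05, edgeR). Cyp2s1, a P450 known from extrahepatic epithelia, fell from 20.7, 20.7, 23.8 and 25 CPM to 12.9, 14.5, 11.1 and 9.89 CPM (-0.89 ± 0.14, adjusted p = 0.000383, edgeR). Cyp2b10, a target of the nuclear receptor CAR, fell from 6.43, 5.99, 5.19 and 6.77 CPM to 2.69, 3.25, 2.15 and 3.49 CPM (-1.09 ± 0.21, adjusted p = 0.00286, edgeR). These 4 calls held whichever mouse was left out, and after subtraction.

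The other 4 genes were not called after subtraction, although their log2 changes stayed close to the measured ones (-2.30 for Fmo2, -0.33 for Gsto1, -0.92 for Cyp1a1 and -0.88 for Cyp4f39). Fmo2, the main flavin-containing monooxygenase of lung, read 1.03, 3.4, 2.62 and 0.423 CPM with vehicle and 0.142, 1.03, 0.179 and 0.097 CPM with EC, on 113 and 20 reads (-2.37 ± 0.56, adjusted p = 0.0148, edgeR). Its groups overlapped, and its adjusted p was 0.0702 without mouse 1 and 0.0908 without mouse 3. Gsto1 read 1174, 1168, 1063 and 1353 CPM with EC against 1506, 1569, 1377 and 1584 CPM and was lower by 1.27-fold (-0.34 ± 0.09, adjusted p = 0.0256, edgeR), with adjusted p-values of 0.164, 0.195 and 0.0968 without mouse 1, 2 or 3. Cyp1a1 read 9.64, 5.98, 1.32 and 2.72 CPM with EC (-0.97 ± 0.24, adjusted p = 0.0215, edgeR), and its groups overlapped. Its adjusted p was 0.656 with no replicate block, 0.0989 without mouse 1 and 0.116 without mouse 3. Cyp4f39, which hydroxylates very long fatty acids, changed by -0.89 ± 0.24 (adjusted p = 0.0425, edgeR) and lost its call whichever mouse was left out.

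Cyp2f2 did not pass the test with EC, with 335, 326, 263 and 201 CPM (-0.20 ± 0.09, adjusted p = 0.326, edgeR), and neither did Cyp1b1, with 365, 301, 301 and 287 CPM (-0.06 ± 0.09, adjusted p = 0.834, edgeR). Genes of the epithelial cell types moved as well. The 9 genes of alveolar type 2 (AT2) cells summed to 12500 to 16690 CPM with vehicle and 8839 to 11220 CPM with EC (5 lower), and the 8 genes of alveolar type 1 (AT1) cells to 1927 to 2332 and 1327 to 1594 CPM (5 lower). The 14 club cell genes outside the enzyme families summed to 2236 to 3030 and 2406 to 3358 CPM, with 3 higher and 5 lower of 12 tested, and of the 8 ciliated cell genes none was called. Fewer cells of a type and less RNA per cell cannot be told apart in bulk libraries, and the part of these shifts in the enzyme results was not tested.

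IPFc changed 10 of the 55 enzymes in epithelial cells, 9 lower and 1 higher. This was 18.2%, against 4.1% of all genes (2.57% higher and 1.53% lower), with a median log2 change of -0.11 for the 55 genes and 0.01 for all genes. Cyp1a1 and Ces1g fell, Cyp1b1 rose, and decreases were also called for Cyp2f2 and 6 others. By family, 2 of 11 carboxylesterases, 1 of 2 CYP1, 3 of 11 CYP2 and 1 of 6 CYP4 genes and 2 of 20 glutathione S-transferases were lower.

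Cyp1a1 read 5.66, 3.32, 0.822 and 0.651 CPM with IPFc against 17, 10.4, 3.29 and 6.01 CPM with vehicle. The groups overlapped, but the value with IPFc was the lower one in each of the 4 mice, and the log2 change was -1.91 ± 0.26 (adjusted p = 8.63e-05, edgeR). In the fit that left the mouse out of the model its adjusted p was 0.21 (no replicate block). Cyp1b1 read 447, 401, 396 and 432 CPM with IPFc against 389, 305, 271 and 353 CPM, above every vehicle library, and rose by 1.27-fold (0.34 ± 0.09, adjusted p = 0.0301, edgeR). This call was lost without mouse 1, 2 or 3 (adjusted p = 0.0902, 0.161 and 0.186) and held after subtraction (0.43, adjusted p = 0.0474, edgeR).

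Ces1g read 7.92, 9.12, 5.76 and 4.97 CPM, below every vehicle library (-1.39 ± 0.20, adjusted p = 0.000184, edgeR), and kept its call whichever mouse was left out and after subtraction. Cyp2f2 read 257, 252, 249 and 209 CPM, also below every vehicle library (-0.41 ± 0.09, adjusted p = 0.0118, edgeR), but its adjusted p was 0.0523, 0.085 and 0.0819 without mouse 1, 2 or 3 and 0.201 after subtraction (log2 change -0.32). The remaining calls, Gstm7 (-1.69), Cyp4b1 (-1.01), Cyp2b10 (-0.84), Cyp2s1 (-0.64), Ces1d (-0.49) and Gstm1 (-0.36), were also lost after subtraction, and each was lost without at least 1 of the mice. Their log2 changes after subtraction were -1.95, -0.94, -0.79, -0.57, -0.42 and -0.40 in the same order. Cyp4b1, a P450 of lung that activates pneumotoxic compounds, lies outside the rule for named genes and was chosen after its values were seen.

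Gsto1 did not pass the test with IPFc (1420 to 1717 CPM, adjusted p = 0.865, edgeR). Beside these results, the AT2 cell genes summed to 9763 to 13510 CPM with IPFc (2 of 9 lower), the AT1 cell genes to 1546 to 1741 CPM (4 of 8 lower) and the club cell genes outside the families to 2638 to 3863 CPM (3 higher and 2 lower of 12). Of the fibroblast markers 5 of 9 tested were higher. The part of these shifts was not tested.

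**Figure D3:**
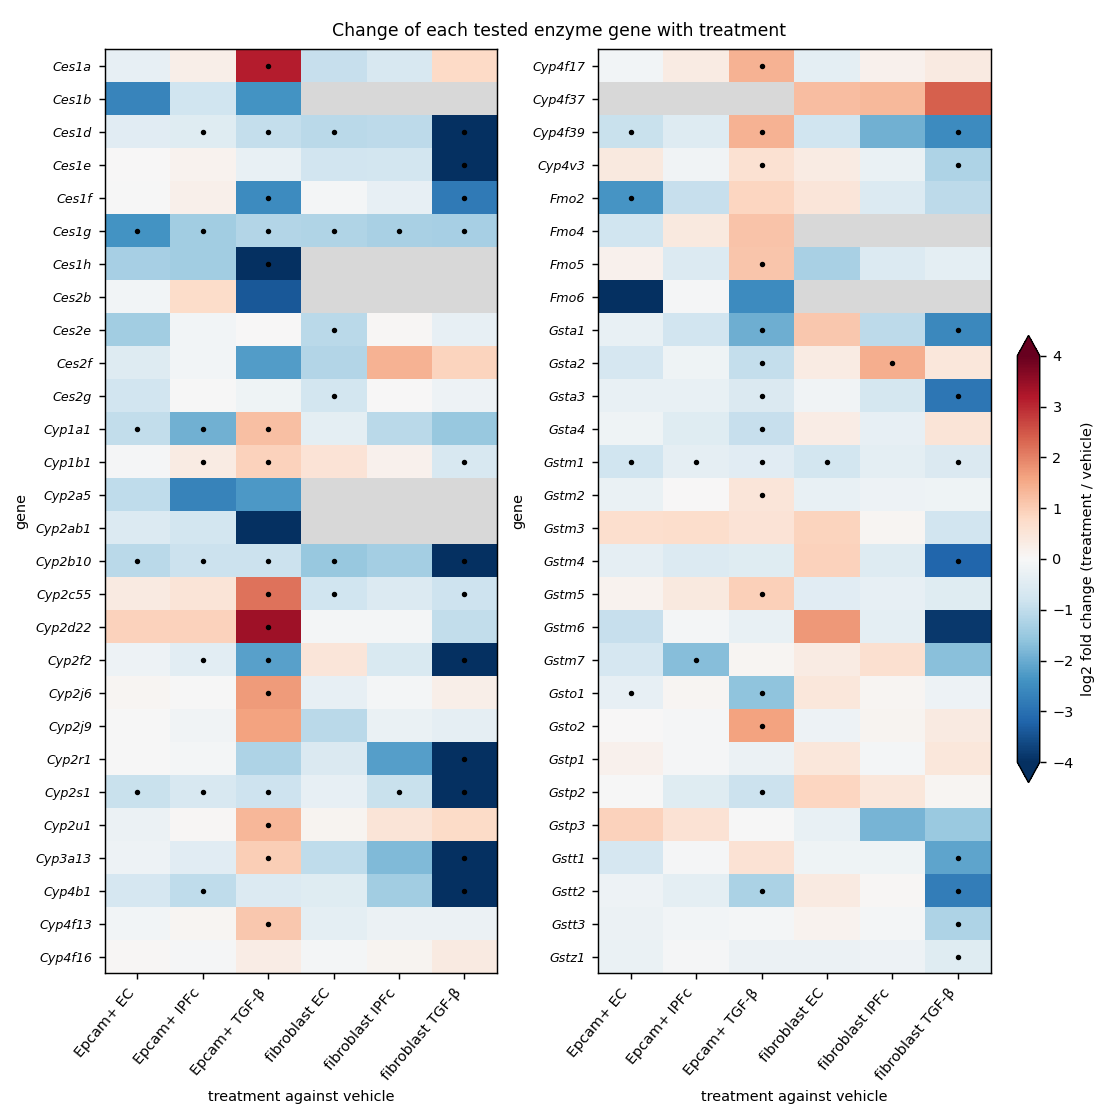
Log2 fold change of each tested enzyme gene (rows, by family) for each treatment against vehicle in each fraction (columns), red for higher and blue for lower. The colour scale ends at 4 in either direction, dots mark adjusted p under 0.05, and grey marks genes not tested in that fraction. TGF-β gave 16 higher and 15 lower calls in the epithelial and 22 lower calls in the fibroblast fraction, and Ces1g was called lower in each of the 6 columns.

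TGF-β changed 31 of the 55 enzymes in epithelial cells, 16 higher and 15 lower, or 56.4%, against 41.1% of all genes (21% higher and 20.1% lower). Cyp2f2, Gsto1 and Ces1g fell, whereas both CYP1 genes rose. CYP2 had 4 higher and 3 lower of 11, CYP4 4 higher and none lower of 6, the carboxylesterases 1 higher and 4 lower of 11, the flavin-containing monooxygenases 1 higher and none lower of 4 and the glutathione S-transferases 3 higher and 8 lower of 20, and Cyp3a13, the CYP3 gene tested, was higher. Of the 31 calls 20 remained after subtraction, and the share of all genes called in that fit is not given here.

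Cyp2f2 read 84.9, 69.1 and 48.6 CPM with TGF-β in mice 2 to 4 against 341, 346 and 270 CPM with vehicle in the same mice. The groups were widely separated, and the decrease was 4.52-fold (log2 -2.18 ± 0.11, adjusted p = 6.07e-12, edgeR) as measured and -1.80 on the log2 scale after subtraction (adjusted p = 1.45e-07). Gsto1 read 474, 491 and 453 CPM against 1569, 1377 and 1584 CPM (-1.62 ± 0.10, adjusted p = 9.83e-11, and -1.52 after subtraction, edgeR). Gsta4 read 184, 152 and 171 CPM against 419, 288 and 294 CPM (-0.93 ± 0.16, adjusted p = 8.01e-05, edgeR). The glutathione S-transferases together summed to 979.8 to 1034 CPM with TGF-β and 2099 to 2446 CPM with vehicle, with Gstt2 of the theta class (-1.28 ± 0.20, adjusted p = 2.69e-05) and Gstm1 (-0.47 ± 0.11, adjusted p = 0.00187, edgeR) among those that fell. Gstm5 (0.94 ± 0.20, adjusted p = 0.000723, edgeR) was higher as measured, and its log2 change was 0.83 after subtraction (adjusted p = 0.0816).

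Among the carboxylesterases, Ces1g read 6.79, 9.95 and 4.95 CPM against 15.5, 19.1 and 16.6 CPM (-1.18 ± 0.23, adjusted p = 0.000242, and -1.46 after subtraction, edgeR). Ces1f read 0.781, 0.0766 and 0.338 CPM against 3.8, 1.18 and 1.1 CPM (-2.51 ± 0.48, adjusted p = 0.000234, edgeR), and all 3 values lay below the vehicle libraries. These TGF-β values rest on 16, 1 and 3 reads. Ces1d, which also hydrolyses triglycerides, read 28.6, 20.8 and 13.5 CPM against 53.7, 40.0 and 28.1 CPM (-0.95 ± 0.15, adjusted p = 2.75e-05, edgeR), lower in each of the 3 mice although the groups overlapped. All 3 remained called after subtraction. For Ces1f that call rests on counts near the floor, since the fibroblast TGF-β libraries, whose share was subtracted, held it at 1.88 to 2.81 CPM.

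Cyp1b1 read 509, 612 and 623 CPM with TGF-β, above every vehicle library, and rose by 1.91-fold (0.93 ± 0.10, adjusted p = 1.45e-07, edgeR). The fibroblast fraction, whose RNA share was raised in these libraries, held Cyp1b1 at 33.9 to 71.1 CPM with TGF-β, and the increase was 1.31 after subtraction (adjusted p = 1.16e-06). Cyp1a1 read 15.8, 7.12 and 17.7 CPM against 10.4, 3.29 and 6.01 CPM in the same mice and was higher in each of the 3 (1.21 ± 0.25, adjusted p = 0.000502, and 1.62 after subtraction, edgeR). Its groups overlapped, and its adjusted p was 0.48 with no replicate block.

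Cyp2j6, of a subfamily that epoxidises arachidonic acid, read 19.1, 23.4 and 28.5 CPM against 6.96, 5.76 and 9.05 CPM (1.70 ± 0.20, adjusted p = 6.19e-07, and 1.89 after subtraction, edgeR). Cyp4f39 read 7.67, 10.4 and 8.89 CPM against 2.1, 4.78 and 4.4 CPM (1.40 ± 0.24, adjusted p = 7.83e-05, and 1.81 after subtraction, edgeR), and Cyp4f17 16.2, 15.6 and 20.6 CPM against 7.36, 7.04 and 5.92 CPM (1.39 ± 0.18, adjusted p = 1.88e-06, and 0.96 after subtraction). None of these 3 genes overlapped between the groups, and the share of all genes without overlap is not given here. Cyp2j6 and Cyp4f17 were named for their small adjusted p in this comparison, which favours separated values. The fibroblast TGF-β libraries held Cyp4f17 at 33.3 to 41.9 CPM, and fibroblast RNA made up an estimated 24.4 to 30.8% of the epithelial TGF-β libraries. Its part in the Cyp4f17 change was not tested beyond the subtraction. Among the other named genes, Cyp3a13 and Fmo5 rose (adjusted p = 0.0398 and 0.0383, edgeR) but lost their calls without 3 or more of the mice in turn. Cyp2s1 (-0.82), Cyp2b10 (-0.85), Cyp2c55 (2.17) and Gsta2 (-0.95) were called as measured but not after subtraction, where their log2 changes were -0.41, -0.40, 3.21 and -2.21 (adjusted p = 0.118, 0.301, 0.117 and 0.0628, edgeR).

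Epithelial cell type genes moved beside these enzymes. The AT2 cell genes summed to 2457 to 4957 CPM with TGF-β against 12500 to 16690 CPM with vehicle (9 of 9 lower), and the club cell genes outside the families to 1135 to 1349 against 2236 to 3030 CPM (1 higher and 10 lower of 12). The AT1 cell genes summed to 757 to 980.3 CPM (2 higher and 4 lower of 8) and the ciliated cell genes to 383 to 545 against 1003 to 1151 CPM (1 higher and 1 lower of 8). The fibroblast markers summed to 10450 to 12180 CPM (9 of 9 higher). The part of cell type composition in the enzyme changes was not tested.

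**Figure D4:**
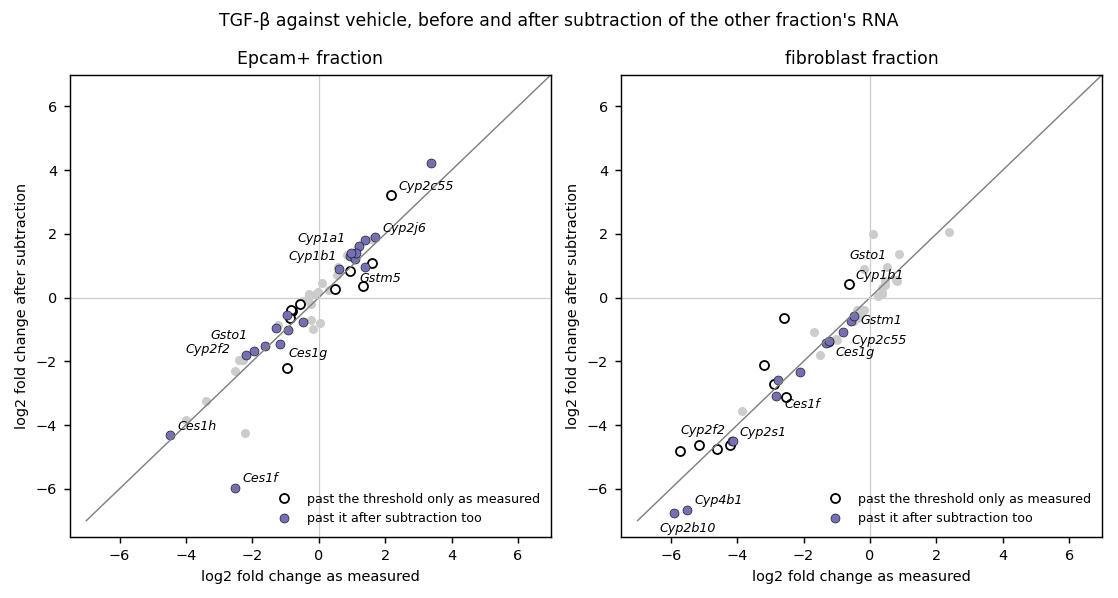
Log2 fold change with TGF-β against vehicle as measured (horizontal) and after subtraction of the other fraction's RNA (vertical) in the epithelial (left) and fibroblast fraction (right), for enzyme genes tested in both fits. The marks tell genes called in both fits from those called as measured alone and those not called as measured; Ces1a was not tested after subtraction in epithelial cells. Of the calls, 20 of 31 in the epithelial and 13 of 22 in the fibroblast fraction remained, and fibroblast Cyp1b1 moved from -0.65 to 0.42.

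The treatments, which share their vehicle libraries in the comparisons above, were also compared directly in epithelial cells. EC and IPFc differed for 4 of 55 enzymes, 7.27%, against 4.17% of all genes. All 4 were lower with EC: Gsto1 (-0.41 ± 0.09), Cyp1b1 (-0.41 ± 0.09), Gstm1 (-0.45 ± 0.10) and Ces1g (-1.01 ± 0.23), with adjusted p-values of 0.00693 to 0.00942 (edgeR). They kept their calls after subtraction, but without mouse 2 none was called (edgeR, 13 of the enzymes at an unadjusted p under 0.05). EC and TGF-β differed for 28 enzymes (50.9%, against 43.1% of all genes) and IPFc and TGF-β for 26 (47.3%, against 37.2%). IPFc contains TGF-β, yet Cyp1a1 averaged 2.61 ± 2.37 CPM with IPFc (SD, n = 4) and 13.5 ± 5.63 CPM with TGF-β (SD, n = 3), a log2 difference of -3.12 ± 0.28 (adjusted p = 2.31e-08, edgeR). Cyp2f2 was higher with IPFc than with TGF-β by 1.76 ± 0.11 and Gsto1 by 1.68 ± 0.10 (adjusted p = 1.43e-10 and 8.43e-11, edgeR).

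In the fibroblast fraction EC lowered 7 of the 49 enzymes tested and raised none, 14.3%, against 7.11% of all genes (4.28% higher and 2.84% lower). Carboxylesterases made up 4 of the 7: Ces1g, Ces1d, Ces2e and Ces2g, the last 2 named after their values were seen. The others were Gstm1, Cyp2b10 and Cyp2c55. Ces1g read 27.2, 35.1 and 21.6 CPM with vehicle (mice 1, 3 and 4) and 18, 11.4, 11.2 and 10.9 CPM with EC (mice 1 to 4), without overlap (-1.19 ± 0.20, adjusted p = 0.00201, edgeR). Gstm1 read 149.5, 137 and 149.6 CPM and 75, 95.3, 86.9 and 90.4 CPM (-0.74 ± 0.13, adjusted p = 0.00224, edgeR), and Cyp2b10 8.81, 7.89 and 7.26 CPM and 2.37, 5.21, 2.98 and 2.76 CPM (-1.53 ± 0.35, adjusted p = 0.0151, edgeR).

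These EC calls in fibroblasts rested on the settings. Epithelial RNA made up 35.4 to 53.7% of the EC libraries, and all 10 epithelial markers were higher there. After subtraction 0 of the 49 enzymes were called by edgeR (6 at an unadjusted p under 0.05). That fit had a biological coefficient of variation of 42.5%, against 16.9% as measured, and its share of calls over all genes is not given here. The log2 change after subtraction was -0.72 for Ces1g, -0.54 for Gstm1, -1.71 for Cyp2b10, -2.93 for Ces1d and -0.40 for Cyp2c55. Without mouse 3 the count was 0 (14 at an unadjusted p under 0.05), without mouse 4 it was 2, and DESeq2 called 9. Without the fibroblast EC library of mouse 1, left out as an alternative chosen after seeing the data, 10 enzymes were called, 1 higher and 9 lower, the 7 among them. The share of all genes called without that library is not given here. In that library Gsta4 read 377 CPM against 111, 143 and 149.8 CPM in the other 3, and Gstp1 654 CPM against 192, 197 and 207 CPM. Cyp2f2, with 46, 71.7, 84 and 125 CPM, was not called (adjusted p = 0.299, edgeR).

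IPFc changed 3 of 49 enzymes in the fibroblast fraction, 6.12%, against 0.449% of all genes (0.305% higher and 0.144% lower). Ces1g fell to 11.2, 16.1, 12.3 and 8.17 CPM (-1.29 ± 0.20, adjusted p = 0.00526, edgeR), and Cyp2s1 fell from 9.94, 16.9 and 18.7 CPM to 6.14, 9.14, 9.33 and 8.4 CPM (-0.91 ± 0.19, adjusted p = 0.0449, edgeR). Gsta2, of the alpha class, rose from 8.21, 4.82 and 4.61 CPM to 22.1, 12.9, 12.4 and 12.5 CPM (1.46 ± 0.31, adjusted p = 0.0476, edgeR). The values did not overlap between the groups for any of the 3, which were named for passing this test. The share of all genes without overlap is not given here. None of the 3 remained called by edgeR after subtraction or without mouse 3 or mouse 4 (8, 11 and 13 enzymes at an unadjusted p under 0.05), and without the fibroblast EC library of mouse 1 there were 6 calls, the 3 among them. Shares of all genes called in these fits are not given here. After subtraction the log2 changes were -1.26 for Ces1g, -0.98 for Cyp2s1 and 1.68 for Gsta2.

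TGF-β lowered 22 of 49 enzymes in the fibroblast fraction and raised none, 44.9%, against 19.2% of all genes (6.39% higher and 12.8% lower). The median log2 change was -0.82 for the 49 genes and -0.02 for all genes. Lower were 4 of 8 carboxylesterases, 5 of 9 CYP2 and 3 of 7 CYP4 genes, Cyp1b1, Cyp3a13 and 8 of 20 glutathione S-transferases. The epithelial RNA in these libraries was 0.732 to 3.1%, against 13.8 to 25.7% with vehicle, and the 10 epithelial markers summed to 49.7 to 177 against 1303 to 2413 CPM, all 10 lower. After subtraction 13 of the 22 calls remained, and without the fibroblast EC library of mouse 1 there were 29 calls, 5 higher and 24 lower, the 22 among them. The biological coefficient of variation was 12.2% without that library, against 16.9% with it. Shares of all genes called in these fits are not given here.

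Cyp2f2 was among the calls that subtraction ended. It read 0.548, 2.54, 0.373 and 2.91 CPM with TGF-β against 36.4, 54.7 and 87.5 CPM with vehicle (-5.15 ± 0.33, adjusted p = 6.33e-09, edgeR), and its log2 change was -4.63 after subtraction (adjusted p = 0.343). The AT2 cell genes, which mark epithelial cells, moved alongside from 4964 to 7353 CPM in sum to 192 to 589 CPM (9 of 9 lower), and the club cell genes outside the families from 529.8 to 1001 to 176 to 316 CPM (1 higher and 9 lower of 12). The part of epithelial RNA in the Cyp2f2 change was not tested beyond the subtraction. Cyp1b1 read 71.1, 53.1, 33.9 and 50.2 CPM against 79.1, 76.6 and 94.4 CPM (-0.65 ± 0.19, adjusted p = 0.0253, edgeR), and its direction turned after subtraction (0.42, adjusted p = 0.983). Ces1d read 0.704, 3.55, 0.498 and 1.09 CPM against 21.4, 26.1 and 19.9 CPM (-4.22 ± 0.34, adjusted p = 7.8e-08, edgeR), and its log2 change was -4.63 after subtraction (adjusted p = 0.062).

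Other enzymes were called lower before and after subtraction. Ces1f read 2.03, 2.81, 2.24 and 1.88 CPM with TGF-β against 20.1, 14.9 and 14.3 CPM with vehicle, while epithelial vehicle libraries held at most 3.8 CPM. The decrease was 7.14-fold as measured (log2 -2.84 ± 0.19, adjusted p = 1.01e-08, edgeR) and -3.08 on the log2 scale after subtraction (adjusted p = 2.16e-05). Cyp2s1 read 0.626, 1.2, 0.809 and 0.728 CPM against 9.94, 16.9 and 18.7 CPM (-4.14 ± 0.23, adjusted p = 2.04e-09, and -4.51 after subtraction, edgeR). Cyp2b10 read 0, 0.468, 0 and 0.121 CPM against 8.81, 7.89 and 7.26 CPM, on 9 reads against 340 (-5.89 ± 0.49, adjusted p = 1.2e-07, and -6.75 after subtraction, edgeR). In each of these 3 genes the groups were far apart, and the share of all genes so far apart is not given here.

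Ces1g read 11.4, 12.1, 11.4 and 9.4 CPM in the TGF-β libraries and was lower than with vehicle (-1.31 ± 0.20, adjusted p = 0.000101, and -1.42 after subtraction, edgeR). Gstt2 (-2.76 ± 0.27), Cyp3a13 (-4.11 ± 0.78, on 5 reads against 43), Gstm1 (-0.57 ± 0.13) and Cyp2c55 (-0.82 ± 0.20) were also called before and after subtraction. Enzymes with higher levels in the fibroblast fraction included some that did not pass the test with TGF-β: Cyp4f17 read 33.3 to 41.9 CPM against 30.7 to 31.3 CPM (adjusted p = 0.0959, edgeR), Cyp2j6 15.6 to 23.1 CPM against 13.6 to 17.7 CPM (adjusted p = 0.33) and Gstm5 12.9 to 14.1 CPM against 16.8 to 28.2 CPM (adjusted p = 0.0861, edgeR). Cyp2r1, a vitamin D 25-hydroxylase named after its values were seen, had 0 reads in the TGF-β libraries, and no fold change is given for it.

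**Figure D5:**
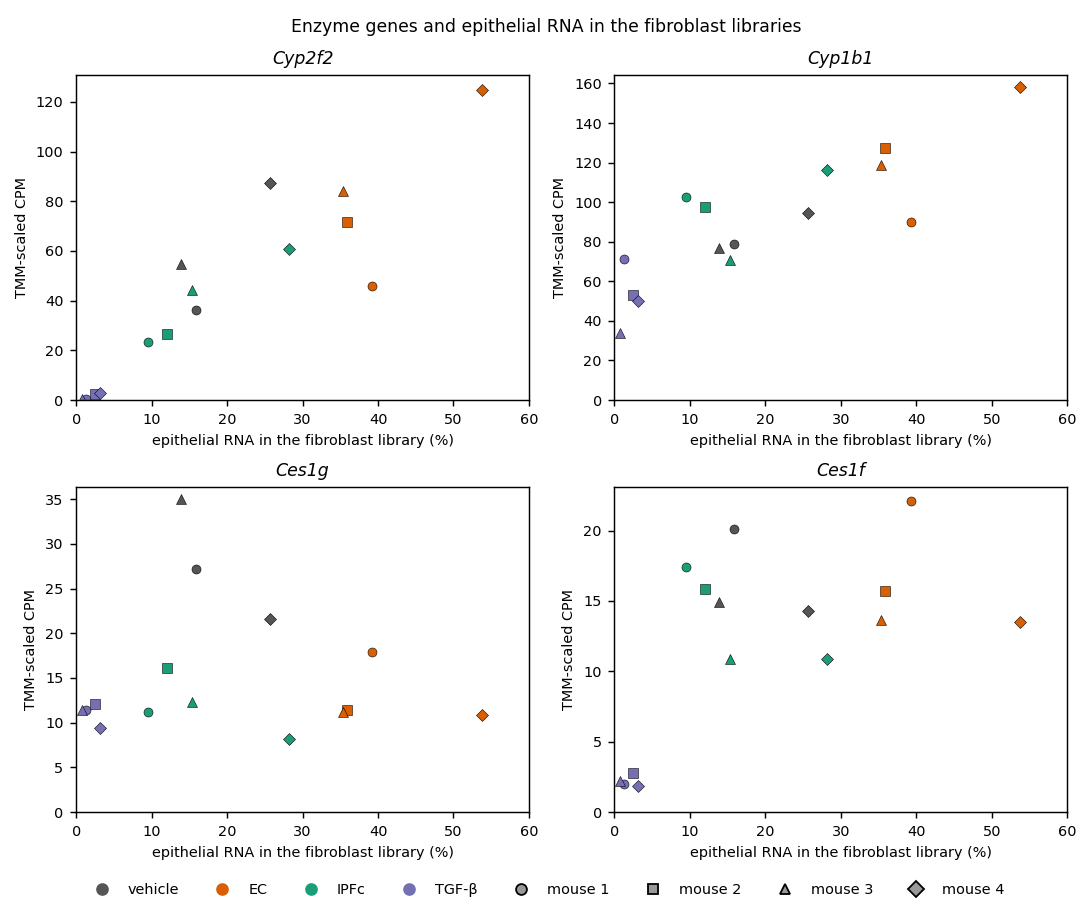
TMM-scaled CPM (vertical) of 4 enzyme genes in the fibroblast libraries against the percent of epithelial RNA estimated in each library (horizontal), with colours for treatments and symbols for mice. Cyp2f2 stood at 0.373 to 2.91 CPM in the 4 TGF-β libraries and at 125 CPM in the EC library with the most epithelial RNA. Ces1g read 9.4 to 12.1 CPM in the TGF-β and 10.9 to 18 CPM in the EC libraries. Epithelial RNA moved with treatment, and the source of these reads was not tested.

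Whether the fractions differed in their response was tested as an interaction, the epithelial log2 change minus the fibroblast log2 change. Subtraction takes a share of each fraction's counts from the other, which can itself widen such differences, so calls kept after it are no separate check. For EC 2 of 53 enzymes differed, 3.77%, against 4.59% of all genes: Ces1g (-1.22 ± 0.31, adjusted p = 0.0219) and Gsto1 (-0.80 ± 0.16, adjusted p = 0.00448, edgeR). After subtraction the difference of Ces1g was -2.22 (adjusted p = 0.00529), whereas that of Gsto1 turned to 0.25 (adjusted p = 0.993). The adjusted p of Ces1g was 0.101, 0.0797 and 0.162 without mouse 1, 3 or 4 (edgeR). For IPFc 0 of 53 differed by edgeR, against 0.229% of all genes, with 7 at an unadjusted p under 0.05 and 2 called by DESeq2.

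For TGF-β 28 of 53 differed, 52.8%, against 27.5% of all genes, and the epithelial change was the higher one for 25 and the lower one for 3: Gsto1 (-1.40 ± 0.17), Gsta4 (-1.42 ± 0.33) and Gsta2 (-1.39 ± 0.48). After subtraction 17 of the 28 remained, all of them with the higher epithelial change, and the share of all genes called in that fit is not given here. They included Cyp2b10 (5.05 ± 0.54, and 6.15 after subtraction), Cyp2s1 (3.34 ± 0.28, and 4.04), Cyp2j6 (1.49 ± 0.25, and 1.78) and Cyp4f39 (3.74 ± 0.61, and 4.48). Cyp2f2, Cyp1b1 and Gsto1 lost their calls, with differences of 2.97, 0.82 and -2.47 after subtraction (adjusted p = 0.244, 0.749 and 0.215, edgeR).

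Genes around these enzymes were followed through lists of sensors, partners and targets. Over all genes, 4.41% were called with EC, 4.1% with IPFc and 41.1% with TGF-β in epithelial and 7.11, 0.449 and 19.2% in fibroblast libraries, and the list counts stand against these shares. Of 14 xenobiotic sensors and regulators, 11 were tested in epithelial and 13 in fibroblast libraries. In epithelial cells none was called with EC or IPFc (median log2 change -0.09 and -0.10), and 2 higher and 3 lower were called with TGF-β (5 of 11, against 41.1% of all genes), among the lower ones Nfe2l2, which encodes NRF2 (-1.07), and Keap1, its inhibitor (-0.60). In fibroblasts 1 was lower with EC, none was called with IPFc and 3 were lower with TGF-β. Nr1i2 (PXR) and Nr1i3 (CAR), the main drug-sensing nuclear receptors of liver, stayed under 0.5 CPM in every library. Of 6 electron partners of the P450 enzymes, 4 were lower with TGF-β in epithelial cells, including the P450 reductase Por (-0.88), and none was called there with EC or IPFc. In fibroblasts 1 was higher with EC (Por, 0.41), none was called with IPFc and 2 were lower with TGF-β.

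The 7 AHR targets outside the families moved in both directions. In epithelial cells EC lowered Nqo1 (-0.45) and Serpinb2 (-1.46), IPFc lowered Aldh3a1 (-0.94) and raised Tiparp (0.59), and TGF-β raised 2, including Nqo1 (0.79), and lowered 3, including Aldh3a1 (-1.43). In fibroblasts the counts were 1 higher and 1 lower with EC, none with IPFc and 1 higher and 3 lower with TGF-β. Of 20 NRF2 targets outside the families, 15 were lower and 2 higher with TGF-β in epithelial cells (median log2 change -0.65, against 0.03 for all genes), led by the carbonyl reductase Cbr3 (-1.92) and Osgin1 (-1.37). The lists share genes, so their counts are not separate evidence. Nqo1 belongs to both of these lists, and Nfe2l2 and Ahrr are sensors as well as AHR targets. Slc7a11, Gclm, Gsr and Gclc also stand in the glutathione list below. Nqo1, Aldh3a1, Ugt1a6a, Cbr1, Cbr3 and Ephx1 also stand among the other detoxifying enzymes below. The counts were 1 higher and 4 lower with EC, the cystine transporter Slc7a11 being the higher one (0.77), and 1 higher and 1 lower with IPFc, and in fibroblasts 2 higher and 2 lower with EC, none with IPFc and 3 higher and 9 lower with TGF-β.

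Of 16 genes of glutathione synthesis and recycling, 2 higher and 8 lower were called with TGF-β in epithelial cells, where 41.1% of all genes were called, 2 higher and 1 lower with EC, and none was called with IPFc. The glutathione peroxidase Gpx2 was lower with TGF-β (-1.31). In fibroblasts the counts were 3 higher and none lower with EC, none with IPFc and 2 higher and 5 lower with TGF-β. Of 47 other detoxifying enzymes 41 were tested in epithelial libraries, with 1 higher and 12 lower with EC, 3 higher and 6 lower with IPFc and 8 higher and 16 lower with TGF-β, against 4.41, 4.1 and 41.1% of all genes. EC lowered the aldehyde oxidase Aox3 (-1.17), the monoamine oxidase Maob (-1.03) and the aldo-keto reductase Akr1c14 (-1.96), and TGF-β lowered the carbonyl reductase Cbr2 (-2.81) and the aldehyde dehydrogenase Aldh3a1 (-1.43). In fibroblasts, with 38 tested, the counts were 4 higher and 8 lower with EC, none with IPFc and 2 higher and 21 lower with TGF-β, where Aox3 (-5.25) and the aldehyde dehydrogenase Aldh1a1 (-5.10) fell. The list changes stood beside shifts in the RNA of the other fraction: 0.732 to 3.1% epithelial RNA in fibroblast TGF-β and 35.4 to 53.7% in fibroblast EC against 13.8 to 25.7% in fibroblast vehicle libraries (10 of 10 epithelial markers lower with TGF-β and 10 of 10 higher with EC), and 24.4 to 30.8% fibroblast RNA in epithelial TGF-β against 4.33 to 9.09% in epithelial vehicle libraries (9 of 9 fibroblast markers higher). The part of these shifts in the list changes was not tested.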

How the data were processed

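Bulk RNA from 30 libraries of 8 groups was measured, with 5113828 to 20317181 counted reads per library. The authors prepared directional libraries, sequenced them on an Illumina NovaSeq, trimmed reads with Trimmomatic 0.30 and deposited raw counts for 55487 Ensembl genes. Aligner, counter and the treatment of reads shared by paralogs are not given in the sources used here. The methods name GRCm38.p6 and the labels GRCm39, so positions were taken from RefSeq only. The study's own tests used DESeq2 1.34.0.

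Counts were analysed with edgeR 4.0.16 in R 4.3.3 (TMM, quasi-likelihood test, two-sided), for genes whose raw counts averaged 1 or more over the libraries of a fit, with Benjamini-Hochberg adjustment over all genes and calls at an adjusted p under 0.05. Each fraction had 1 fit over its 4 treatments with the mouse as a block. Vehicle fractions were compared over all libraries, and differences between fractions as interactions, which gave 13 comparisons. Replicate numbers name the mouse in the labels. Deviations from group means correlated by 0.312 on average within mice and -0.1 between mice in epithelial libraries (0.334 and -0.109 in fibroblast libraries). Within mice they ranged from -0.00717 to 0.696 in epithelial and from -0.325 to 0.719 in fibroblast libraries. Centring on group means pushes the values between mice towards negative ones, so these add no separate evidence. No library repeated another.

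The share of RNA of the other fraction was the median CPM ratio of its marker genes (at least 50 CPM in the partner) between a library and its partner, and subtraction removed that share of the partner's counts. Where a partner was missing, the mean of its group stood in. The scripts were tested on simulated data. Alternatives were DESeq2 1.42.0, its size factors, other filters, no block, only the compared groups, subtraction, each mouse left out, and the fibroblast EC library of mouse 1 left out.

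The 23 named genes were the 2 leading genes by reads of each family in epithelial and 1 in fibroblast libraries, the genes Cyp2f2 and Ces1g, and per direction the 3 (treatments and vehicle fractions) or 2 (other comparisons) calls with the smallest adjusted p. Except for the fraction differences, only calls with the same direction in every mouse with both libraries entered that last choice. For genes named by it, a shared direction over mice is no separate evidence. Cyp1a2, Gstp1, Cyp4b1, Ces2e, Ces2g and Cyp2r1 were added after their values were seen. The members and the 15 gene lists were chosen with earlier results of these data known. P-values rest on the spread between cultures that is left after the mouse block, pooled over the groups of a fit. In fibroblast libraries these are co-cultures of the same cell line and not fibroblast donors.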

Additional observations from a re-analysis of the deposited data

Results flagged for a closer look

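A library stood far from the other 3 of its group in 7 of 112 such tests of named enzymes (Dixon's gap test at its 95% level, which chance passes in about 5% of groups), and 5 of the 7 were the fibroblast EC library of mouse 1, the library with the fewest reads. In it Gsta4 read 376.5 CPM against 110.7 to 149.8 CPM in the other 3, Gsta2 17.96 CPM against 3.811 to 5.777 CPM and Gstm5 21.52 CPM against 12.8 to 13.13 CPM. Ces1g read 17.96 CPM against 10.88 to 11.39 CPM there and Cyp2c55 7.304 CPM against 4.561 to 4.861 CPM. Gsta2 also stood apart in the fibroblast IPFc library of mouse 1 (22.14 CPM against 12.35 to 12.88 CPM) and in the epithelial EC library of mouse 4 (6.304 CPM against 2.906 to 3.025 CPM).

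The response differed between the fractions, by the interaction test of edgeR, for 2 named enzymes with EC: Gsto1 (epithelial minus fibroblast log2 change -0.804) and Ces1g (-1.218). They were the only calls among 53 enzymes, 3.77%, against 4.59% of all genes. With TGF-β 52.8% of the tested enzymes differed, against 27.5% of all genes. With TGF-β the epithelial change was higher for Cyp2s1 (3.343), Cyp2b10 (5.052), Cyp2f2 (2.98), Ces1d (3.26), Cyp2c55 (3.012), Cyp1b1 (1.604), Cyp3a13 (5.029), Cyp4f39 (3.74), Cyp2j6 (1.488), Gstm5 (1.46), Cyp4f17 (1.051), Gstt2 (1.489) and Cyp1a1 (2.728), with adjusted p-values of 1.56e-09 to 0.0412 (edgeR). It was lower for Gsto1 (-1.399), Gsta4 (-1.417) and Gsta2 (-1.389), with adjusted p-values of 6.25e-07 to 0.0327 (edgeR). The estimated share of the other fraction's RNA moved with the same treatments (35.4 to 53.7% epithelial RNA in fibroblast EC and 0.732 to 3.1% in fibroblast TGF-β libraries against 13.8 to 25.7% with vehicle). Its part was not tested beyond the values after subtraction. There the Gsto1 difference with EC changed direction, and Cyp2f2, Cyp1b1 and Gsto1 lost their TGF-β calls. The EC call of Ces1g was lost when some of the mice were left out in turn.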

How the results depend on the processing

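Numbers of called enzymes moved by over 1.5 times under several settings. After subtraction they were 4 of 8 with EC, 3 of 10 with IPFc and 20 of 31 with TGF-β in epithelial cells, 0 of 7, 0 of 3 and 13 of 22 in fibroblasts, 17 of 28 for EC against TGF-β, 17 of 26 for IPFc against TGF-β, and 1 of 2 and 17 of 28 for the fraction differences with EC and TGF-β. Subtraction also raised the fibroblast biological coefficient of variation from 16.9 to 42.5% and turned the direction of Cyp1b1 in fibroblasts with TGF-β (0.418) and of the Gsto1 fraction difference with EC (0.247). Without the replicate block the counts were 4 (epithelial EC), 3 (epithelial IPFc), 2 (fibroblast EC), 1 (fibroblast IPFc), 2 (EC against IPFc, main 4) and 0 (EC fraction difference, 9 at an unadjusted p under 0.05). Without a filter on low counts they were 12 and 8 in fibroblasts with EC and IPFc, 8 for EC against IPFc, and 6 and 2 for the EC and IPFc fraction differences. With only the compared groups they were 7 for fibroblast IPFc and 4 and 1 for those differences, and DESeq2 gave 5 for fibroblast IPFc and 2 for the IPFc difference. The other counts under these settings, and all counts with DESeq2 size factors or a mean count of at least 10, stayed within 1.5 times. Shares of all genes called under the alternative settings are not given here. Losses among the enzymes are therefore not set against losses over all genes.

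Leaving out a mouse gave 4 to 13 calls for epithelial EC, 4 to 9 for IPFc and 25 to 28 for TGF-β, 0 to 6 for EC against IPFc, 0 to 6 for fibroblast EC, 0 to 3 for IPFc and 17 to 24 for TGF-β, 1 to 2 for the EC fraction difference and 0 for IPFc. The lowest counts came without mouse 1 or 3 (epithelial EC), 1 or 2 (epithelial IPFc), 2 (EC against IPFc), 3 (fibroblast EC), 3 or 4 (fibroblast IPFc) and 1, 3 or 4 (EC difference). Without the fibroblast EC library of mouse 1, chosen after seeing the data, the counts were 10, 6 and 29 in fibroblasts and 3, 1 and 29 for the differences. The causes of these shifts were not tested. Genes with few reads, such as Fmo2, limit what could be called.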
